A study of Mus musculus with 4 samples.

Results

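Aldh1l1 and 7 other enzymes of folate one-carbon metabolism (Aldh1l2, Mthfd1, Mthfd2, Shmt1, Shmt2, Tyms and Mtr) were measured in the cerebellum of mice lacking Dicer in astroglia. The 8 genes, out of 28632 different names on the array, were chosen by function around Aldh1l1, which was itself selected on its high ratio in these arrays. The values of Aldh1l1 are therefore given as a description with no test. The question was whether the rise of Aldh1l1 extends to the other enzymes of its pathway. None of the other 7 passed the test: Aldh1l1 transcript stood at 2.84 times the control level, and the fitted ratios of the other 7 lay between 0.93-fold and 1.2-fold.

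The mutants carried the mGfap-Cre transgene, in which mouse Gfap sequences drive Cre, and 2 floxed Dicer alleles (mGfap-Cre; Dicer flox/flox). The controls were littermates with the same transgene and 1 floxed allele (mGfap-Cre; Dicer +/flox), so Cre was present in both groups and the controls could lose 1 Dicer copy in the same cells. All animals were at postnatal day 30 and on a mixed background, from a cross of the Cre line with the floxed Dicer line. Total RNA of whole cerebellum was hybridised to 4 two-colour Agilent arrays, 1 littermate pair per array, with 4 mutants and 4 controls in all. The mutant was labelled with Cy5 in pairs 1 and 3 and with Cy3 in pairs 2 and 4.

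Between 26398 and 28907 probes per array exceeded background clearly in the mutant, and between 26291 and 27718 did so in the control; the number of arrays limits the precision. Dicer1 itself, which has 2 probes, had a log2 ratio of 0.039 ± 0.22 (SD, n = 4 pairs) at the probe that stood for it. Whether that probe lies in the deleted part is not given in the sources used here, so it does not check the labels. Of 12 astroglial marker genes, all well above background in every channel, Gfap was called higher (log2 ratio 1.47), and S100b (-0.56), Aqp4 (-0.54) and Slc1a2 (-0.57) were called lower. In tissue RNA of this kind, fewer cells of a type and less RNA per cell cannot be told apart.

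Folate coenzymes carry single carbon units between serine, glycine, formate, purines, thymidylate and methionine, in parallel sets of reactions in the cytosol and in mitochondria. Serine hydroxymethyltransferases load the carbon, the MTHFD enzymes interconvert its oxidation states, thymidylate synthase and methionine synthase use it, and the formyltetrahydrofolate dehydrogenases ALDH1L1 and ALDH1L2 remove it as carbon dioxide with reduction of NADP+. In the brain Aldh1l1 is widely used as a marker of astrocytes, and in cerebellum it is also a marker of Bergmann glia.

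Because Aldh1l1 and Aldh1l2 are paralogs and Tyms has a listed near copy, Tyms-ps, probes of these genes are shown first. Each probe is 60 bases long, is printed from 5′ to 3′ as given in the array files, and has mm9 coordinates per the file headers. Capitals in the Aldh1l1 and Aldh1l2 probes mark the 36 bases by which they overlap when aligned without gaps.
Aldh1l1 probe A_51_P504546, chr6:90548335-90548895, plus strand: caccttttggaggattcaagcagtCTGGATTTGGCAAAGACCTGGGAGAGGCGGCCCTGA
Aldh1l2 probe A_51_P468658, chr10:82953341-82955240, minus strand: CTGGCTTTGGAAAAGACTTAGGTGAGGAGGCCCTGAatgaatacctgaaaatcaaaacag
Over that overlap 30 of 36 bases are identical, or 83.3%. The 60 bases of the Aldh1l1 probe span 561 bases of the genome, so they are placed in pieces with a gap between them, as are those of the Aldh1l2 probe over 1900 bases. No mm9 gene annotation was used here, so exon and UTR positions are not given.

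Tyms probes A_51_P398366 and A_52_P292651 and the Tyms-ps probe are shown because their ratios bear on whether the Tyms signal is of Tyms alone. A further Tyms probe, A_51_P375761, was not aligned with that of Tyms-ps. Capitals mark, in each Tyms probe, the longest run it shares with the Tyms-ps probe, and both runs in the latter.
Tyms probe A_51_P398366, chr5:30387605-30387664, minus strand: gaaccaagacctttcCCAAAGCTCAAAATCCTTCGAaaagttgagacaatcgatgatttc
Tyms probe A_52_P292651, chr5:30387625-30388518, minus strand: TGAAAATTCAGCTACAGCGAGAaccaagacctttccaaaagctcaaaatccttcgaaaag
Tyms-ps probe A_51_P351363, chr10:87430357-87430416, plus strand: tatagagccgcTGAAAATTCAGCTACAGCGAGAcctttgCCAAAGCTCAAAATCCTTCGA
The longest unbroken shared runs are 21 and 22 bases long. Further bases outside the capitals of the Tyms probes also match, so the runs understate the likeness. The Tyms values below are uncertain to the extent that transcripts of the copy bind these probes.

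Ratios are log2 of mutant over control within a pair, after background correction and loess normalisation, so that 1 is a doubling. Levels are normalised log2 intensities of 1 channel, comparable between animals for the same probe and not between probes. Aldh1l1, the cytosolic formyltetrahydrofolate dehydrogenase, had levels of 13.654, 13.605, 13.36 and 13.84 in the mutants of pairs 1 to 4. In the control littermates its levels were 12.19, 12.10, 12.12 and 12.03. Every mutant lay above every control by more than 1 log2 unit, and the controls were closer to each other (SD 0.063, n = 4) than the mutants were (SD 0.20, n = 4).

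The Aldh1l1 log2 ratios of the 4 pairs were 1.47, 1.504, 1.24 and 1.81, with a mean of 1.504 ± 0.23 (SD, n = 4 pairs). The ratio averaged 1.35 where the mutant was in Cy5 and 1.66 where it was in Cy3. Of 18025 genes tested, 13 had a higher mean ratio. The array carried 1 probe for Aldh1l1, so no second probe bears on its level.

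Across the other 7 genes 0 were called, higher or lower, by limma's moderated test with Benjamini-Hochberg adjustment over all genes at a threshold of 0.05. In the same comparison 1.03% of all tested genes were called, 0.588% as higher and 0.444% as lower. A count of 0 among 7 genes is near this background and is not by itself a result about these genes, so the sizes and intervals of their ratios are given. The number of these 7 with an unadjusted p under 0.05 was 0, against 9.39% of all tested genes. Their median log2 ratio was 0.055, with 4 genes above 0 and 3 below, and the median over all tested genes was 0.002.

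The 95% intervals of the 7 log2 ratios together reached from -0.28 to 0.58, that is, from 0.826-fold to 1.49-fold. The highest ratio in any single pair over the 13 probes of these genes was 0.67, and the lowest Aldh1l1 ratio in any pair was 1.24. The mean ratio of Aldh1l1 lies outside the interval of each of the 7. As Aldh1l1 was selected on its high ratio in these arrays, this is a description and not a test. Tyms has the highest upper bound, 0.58, and the next is that of Mtr, at 0.28. In this fit, rises above 0.28 thus lie outside the intervals of the 6 genes other than Tyms. These bounds belong to the main processing only. With the scanner's processed signals the Mtr log2 ratio was 0.221, against 0.122 here. The smallest mean log2 ratios that were called anywhere on the array were 0.47 among higher genes and -0.44 among lower genes.

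**Figure D1:**
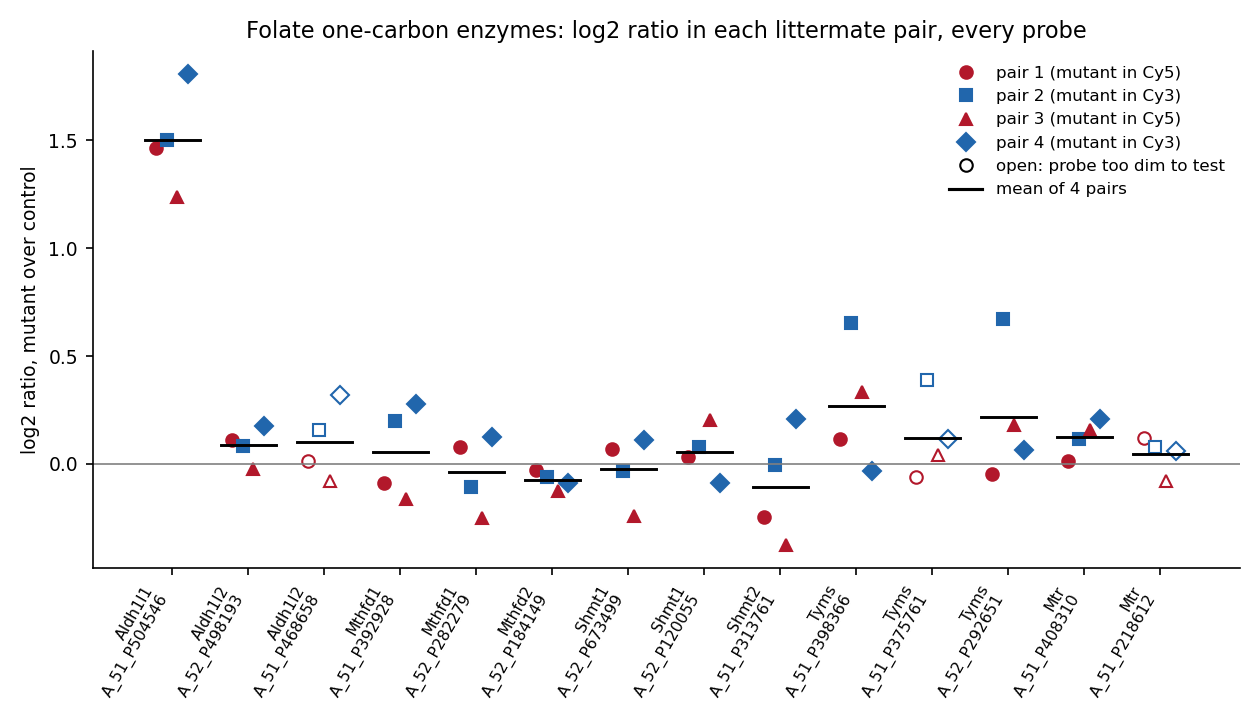
Log2 ratio of mutant over control (vertical axis) in each of the 4 littermate pairs for all 14 probes of the 8 genes, with the mean as a bar, the dye of the mutant as colour and probes too dim to test as open symbols. The 4 Aldh1l1 points lie between 1.24 and 1.81, and every point of the other 13 probes lies between -0.38 and 0.67.

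Aldh1l2 encodes the mitochondrial counterpart of Aldh1l1, which carries out the same reaction. Its brighter probe, A_52_P498193, read 8.22, 8.24, 8.22 and 8.45 in the mutants and 8.12, 8.16, 8.25 and 8.28 in the controls. The groups overlapped, and the mutant of pair 4 was the highest animal. The log2 ratios were 0.11, 0.083, -0.023 and 0.17, with a mean of 0.086 ± 0.082 (SD, n = 4 pairs; 95% interval -0.069 to 0.24; limma adjusted p = 0.796).

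The second Aldh1l2 probe, the paralog stretch shown above, was well above background in 1 of 4 mutant channels and 0 of 4 control channels. Its mean level was 6.36 in mutants and 6.25 in controls. With so few channels measured, no fold is given for it. Whether Aldh1l1 transcript binds either Aldh1l2 probe was not tested, and only this probe was aligned with that of Aldh1l1.

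The serine hydroxymethyltransferases, which transfer a carbon from serine to tetrahydrofolate and release glycine, showed no call in either compartment. Shmt1, the cytosolic enzyme, had log2 ratios of 0.067, -0.031, -0.24 and 0.11 at probe A_52_P673499, a mean of -0.024 ± 0.16 (SD, n = 4 pairs; 95% interval -0.22 to 0.17; limma adjusted p = 0.963). A second Shmt1 probe, A_52_P120055, averaged 0.056 ± 0.12 (SD, n = 4 pairs). The direction of Shmt1 was opposite at its 2 probes, and it turned with several of the processing choices listed in the closing section.

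Shmt2, the mitochondrial enzyme, read 9.998, 9.991, 9.77 and 10.09 in the mutants and 10.25, 9.995, 10.14 and 9.88 in the controls. Its log2 ratios were -0.25, -0.004, -0.38 and 0.21, a mean of -0.105 ± 0.26 (SD, n = 4 pairs; 95% interval -0.28 to 0.065; limma adjusted p = 0.762). These pairs split by dye, with a mean of -0.31 where the mutant was in Cy5 and 0.10 where it was in Cy3. The fit holds a dye term, so the interval does not include that split, which is part of the SD.

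Mthfd1, the trifunctional cytosolic enzyme that interconverts methylene, methenyl and formyl folates, was read by 2 probes above background in all channels. At the brighter one, A_51_P392928, mutant levels were 11.73, 11.96, 11.82 and 12.07, and control levels were 11.82, 11.77, 11.99 and 11.79. The log2 ratios were -0.091, 0.20, -0.16 and 0.28, a mean of 0.055 ± 0.22 (SD, n = 4 pairs; 95% interval -0.093 to 0.20; limma adjusted p = 0.871). As for Shmt2 the pairs split by dye, with a mean of -0.13 for Cy5 mutants and 0.24 for Cy3 mutants. The second probe, A_52_P282279, averaged -0.039 ± 0.17 (SD, n = 4 pairs).

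Mthfd2 encodes the mitochondrial methylenetetrahydrofolate dehydrogenase, known for its high expression in embryonic and dividing cells. The mutants read 8.01, 7.90, 7.45 and 7.54 and the controls 8.04, 7.96, 7.57 and 7.62. Littermates were close while pairs differed from each other, and each mutant lay slightly under its own control. The log2 ratios were -0.028, -0.059, -0.12 and -0.087, a mean of -0.075 ± 0.041 (SD, n = 4 pairs; 95% interval -0.22 to 0.072; limma adjusted p = 0.813). This was the smallest spread between pairs among the 8 genes, where the median SD over all tested genes was 0.159.

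**Figure D2:**
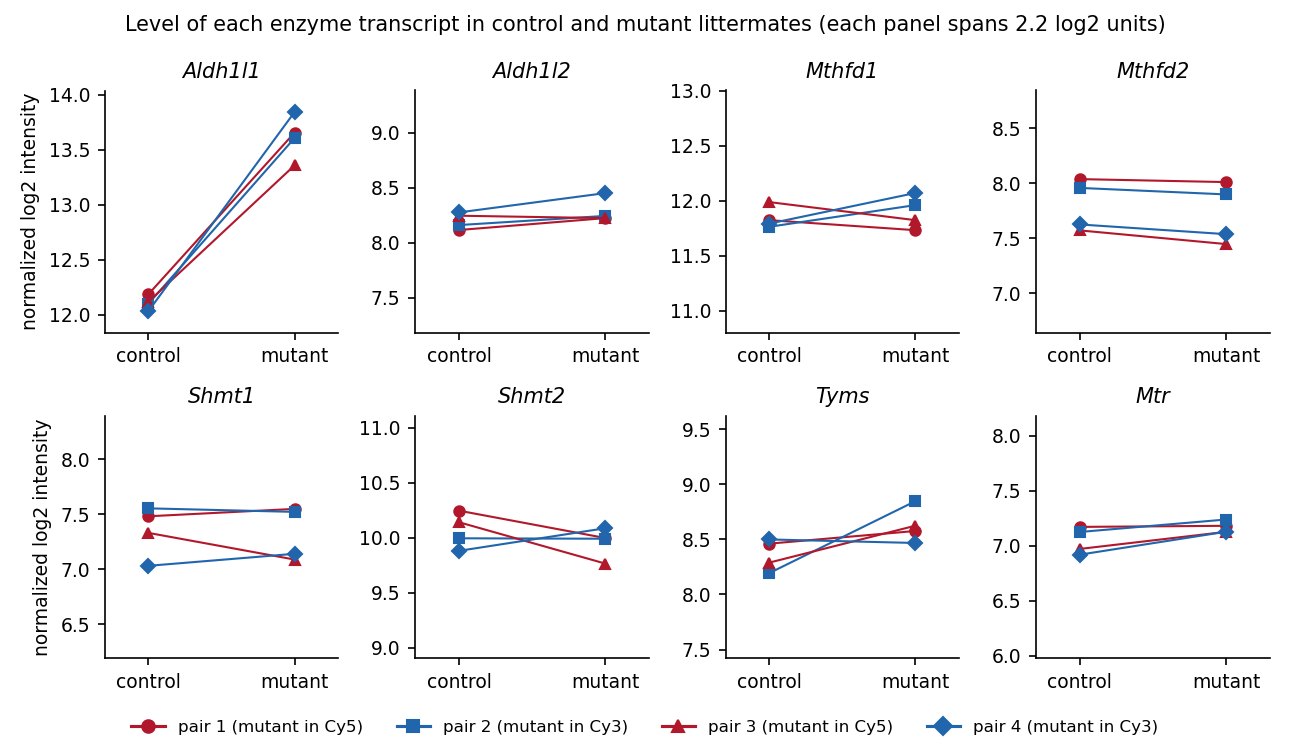
Normalised log2 intensity (vertical axis, the same span in every panel) of the leading probe of each gene in control and mutant, with a line joining the littermates of a pair. Mutants and controls are apart for Aldh1l1, from 13.36 upward against 12.19 and below, and overlap for the other 7 genes.

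Tyms encodes thymidylate synthase, which makes thymidylate for DNA synthesis and is high in dividing cells. It had the highest ratio of the 7 and the widest spread. Mutants read 8.58, 8.85, 8.62 and 8.47 at probe A_51_P398366, and controls read 8.46, 8.195, 8.29 and 8.500. The mutants of pairs 1 to 3 lay above every control, and the mutant of pair 4 lay under its littermate.

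The Tyms log2 ratios were 0.12, 0.65, 0.34 and -0.032, a mean of 0.27 ± 0.30 (SD, n = 4 pairs; 95% interval -0.043 to 0.58; limma adjusted p = 0.635). Pair 2 was the highest, and the fit gave 0.097 without pair 2 and 0.44 without pair 4 (limma adjusted p = 0.0684). These fits keep the dye term, so the kept pair with the dye of the omitted pair counts more than the others. A second probe, A_52_P292651, gave -0.049, 0.67, 0.18 and 0.063, again with pair 2 the highest. The third, A_51_P375761, was above background in 2 of 4 channels of each group. It gave -0.059, 0.39, 0.039 and 0.11 in pairs 1 to 4, a mean of 0.12.

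The Tyms-ps probe, above background in all channels, had log2 ratios of -0.088, 0.39, 0.018 and 0.11, a mean of 0.11 ± 0.21 (SD, n = 4 pairs). Pair 2 was thus the highest at the Tyms-ps probe as at all 3 Tyms probes. How much of each signal came from the other transcript was not tested.

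Among 8 markers of dividing cells, 6 were tested and 0 were called, with a median log2 ratio of 0.17. Of the 6, Cdk1, a cell cycle kinase, was well above background in 4 of 4 mutant channels and 0 of 4 control channels, so it was tested only through the group in which it is high and its control level is not measured. Over the 5 markers measured in every channel, which the stricter filter keeps, the median was 0.056. Pcna (0.043), Mcm2 (0.056) and Mcm5 (0.019), which act in DNA replication, had log2 ratios near 0, and Ccna2, a cyclin, had one of 0.33. The median of the list was 0.299 without pair 1. The summed level of the list ranged from 12.89 to 13.14 in mutants and from 12.69 to 13.11 in controls. Mki67, which marks cycling cells, had log2 ratios of 1.04, 1.00, 0.56 and 0.070 in pairs 1 to 4 (mean 0.67, limma adjusted p = 0.244). Mki67 was called higher without pair 4. Cdk1 was called with the scanner's processed signals, again with no control channel above background. The lowest value was in pair 4, as for Tyms at its leading probe, but pair 1 was the highest for Mki67 and not for Tyms. The part of these cells in the Tyms ratio was not tested.

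Mtr, the cobalamin-dependent methionine synthase, uses the methyl folate to regenerate methionine from homocysteine. At probe A_51_P408310 mutants read 7.18, 7.24, 7.13 and 7.13 and controls 7.17, 7.13, 6.97 and 6.92. Each mutant exceeded its own littermate, but the mutants of pairs 3 and 4 lay below the control of pair 1. The log2 ratios were 0.011, 0.11, 0.15 and 0.21, a mean of 0.12 ± 0.084 (SD, n = 4 pairs; 95% interval -0.035 to 0.28; limma adjusted p = 0.678). A dimmer probe, A_51_P218612, above background in 3 of 4 channels of each group, averaged 0.044 ± 0.085 (SD, n = 4 pairs).

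Grouped by compartment, the 4 cytosolic enzymes other than Aldh1l1 (Mthfd1, Shmt1, Tyms and Mtr) had a median log2 ratio of 0.088, and the 3 mitochondrial enzymes (Aldh1l2, Mthfd2 and Shmt2) had one of -0.075. This difference was not tested.

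**Figure D3:**
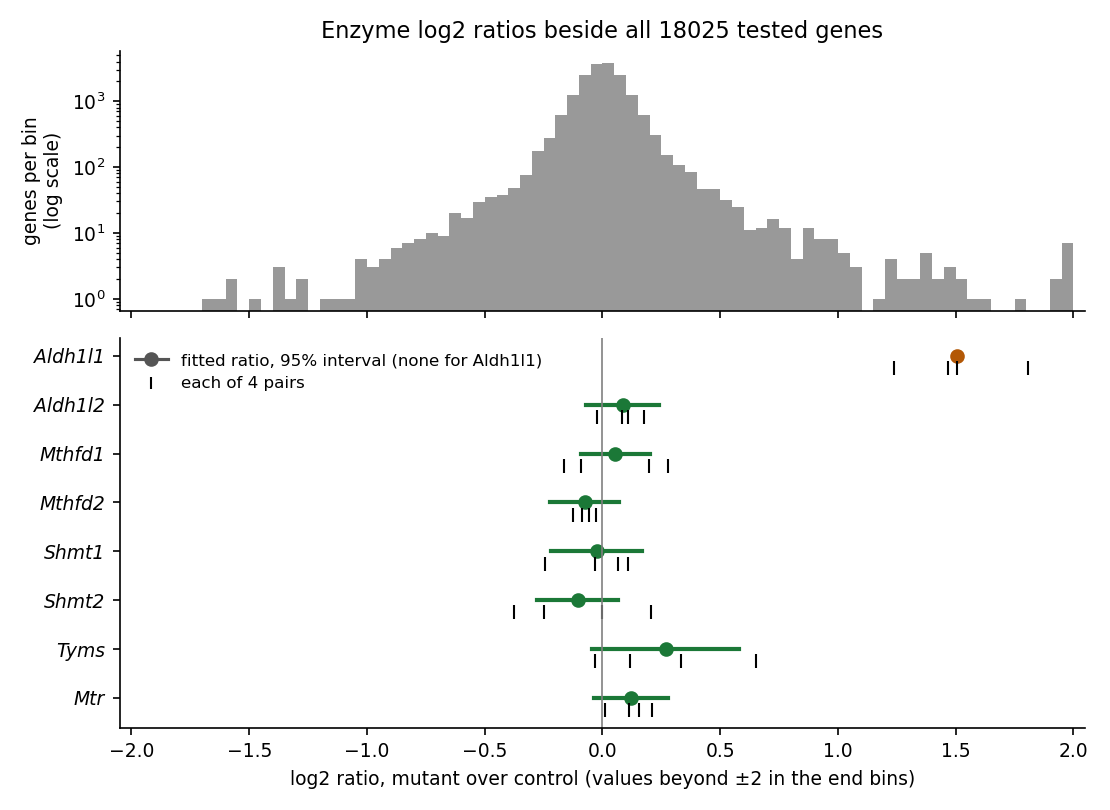
Upper panel: number of tested genes (log scale) in bins of log2 ratio, over all 18025 genes. Lower panel: fitted log2 ratio, 95% interval and the 4 pair values of each of the 8 genes on the same axis, with no interval for Aldh1l1; the intervals of the other 7 include 0 and end at 0.58 or below.

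Around these enzymes, 9 lists of pathway genes were compared, with 81 of 89 listed genes tested. Of these, 0 were called, against the 1.03% called over all genes, and their median log2 ratio was 0.010 in a range from -0.28 to 0.46. An unadjusted p under 0.05 was found for 13 of them, or 16%, against 9.39% of all tested genes. The highest of the 81 lay more than 1 log2 unit under Aldh1l1. These counts cover the listed genes only. Pipox, a sarcosine oxidase described below, was on none of the lists and had a mean log2 ratio of 1.35. In 15 of 16 alternatives 0 were called, and in the other, without pair 2, Idh2 was called.

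Of 11 tested genes on the folate interconversion list, 0 were called and 6 had a ratio above 0. The list includes Qdpr, whose named substrate is a dihydropteridine rather than a folate. The lowest p-values were those of Qdpr, the quinoid dihydropteridine reductase (log2 ratio -0.22 ± 0.15, SD, n = 4 pairs; limma adjusted p = 0.491), and Mthfs, which returns formyl folate to the cycle (-0.28 ± 0.33, SD, n = 4 pairs; limma adjusted p = 0.529). Mthfs was low in pair 4 at -0.77 and between -0.15 and -0.067 in the other pairs. All 7 folate transport genes were tested and 0 were called, with Abcc1, an efflux pump that accepts folates, at -0.10 and Slc19a1, the reduced folate carrier, at -0.093.

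The methionine cycle and transsulfuration list had 12 tested genes, 0 called and a median of 0.021. Its highest members were the enzymes of transsulfuration, which takes homocysteine to cysteine. Cth, cystathionine gamma-lyase, had log2 ratios of 0.47, 0.62, 0.18 and 0.58, all above 0, with a mean of 0.46 that missed the threshold (95% interval 0.28 to 0.64; limma adjusted p = 0.0744). Cbs, cystathionine beta-synthase, the step before it, had ratios of 0.086, 0.26, 0.16 and 0.48, a mean of 0.25 (95% interval 0.078 to 0.41; limma adjusted p = 0.29). Both genes had intervals above 0, and neither passed after adjustment over all genes.

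Serine and glycine supply gave 0 calls. Of the 3 serine synthesis genes, Psat1 stood at -0.15 and Psph at -0.155 (log2), and Phgdh, the entry step of serine synthesis, at 0.010 ± 0.31 (SD, n = 4 pairs). Of 6 tested genes of glycine cleavage and choline-derived carbon units, Sardh, which oxidises sarcosine in mitochondria, had log2 ratios of -0.39, -0.11, -0.48 and -0.12, with a mean of -0.27 (95% interval -0.42 to -0.13; limma adjusted p = 0.165). Gcsh, the carrier protein of the glycine cleavage system, had a mean of -0.23 (95% interval -0.39 to -0.061; limma adjusted p = 0.329). The means of Sardh and Gcsh were below 0, and neither was called.

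The purine synthesis list leaves out Gart (log2 ratio -0.043) and Atic (-0.041), which were on the folate interconversion list. All 11 genes of the purine synthesis list were tested, with 0 called and a median log2 ratio of -0.006. Adssl1 (-0.19) and Pfas (0.16) had the smallest p-values there. Without pair 2 they stood at -0.29 and 0.016, and without pair 4 at -0.098 and 0.30. All 8 genes of thymidylate and deoxynucleotide supply were tested, with 0 called and a median of 0.060. Rrm2, the small subunit of ribonucleotide reductase, had ratios of 0.31, 0.28, 0.35 and -0.094 (mean 0.21; limma adjusted p = 0.506), so that pair 4 was its lowest pair, as it was at the leading Tyms probe but not at the other 2, where pair 1 was lowest. Tk2, the mitochondrial thymidine kinase, averaged -0.19 (limma adjusted p = 0.608), with -0.093 without pair 2 and -0.295 without pair 4.

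Of 16 other aldehyde dehydrogenases 15 were tested, 0 were called, and the median log2 ratio was 0.010. The smallest p-values were those of Aldh9a1 (-0.28; 95% interval -0.46 to -0.11; limma adjusted p = 0.226) and Aldh3b1 (0.28; 95% interval 0.069 to 0.49; limma adjusted p = 0.35). The 15 ratios ran from -0.28 to 0.28.

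All 8 genes that supply NADPH were tested and 0 were called. Idh2, the mitochondrial NADP-dependent isocitrate dehydrogenase, had log2 ratios of 0.51, 0.068, 0.11 and 1.06 (mean 0.44 ± 0.46, SD, n = 4 pairs; limma adjusted p = 0.529). Idh2 passed the threshold only when pair 2 was left out, at 0.69 (limma adjusted p = 0.0362). Me1, cytosolic malic enzyme, averaged 0.22 (limma adjusted p = 0.678), with 0.063 without pair 2 and 0.39 without pair 4 (limma adjusted p = 0.0736).

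**Figure D4:**
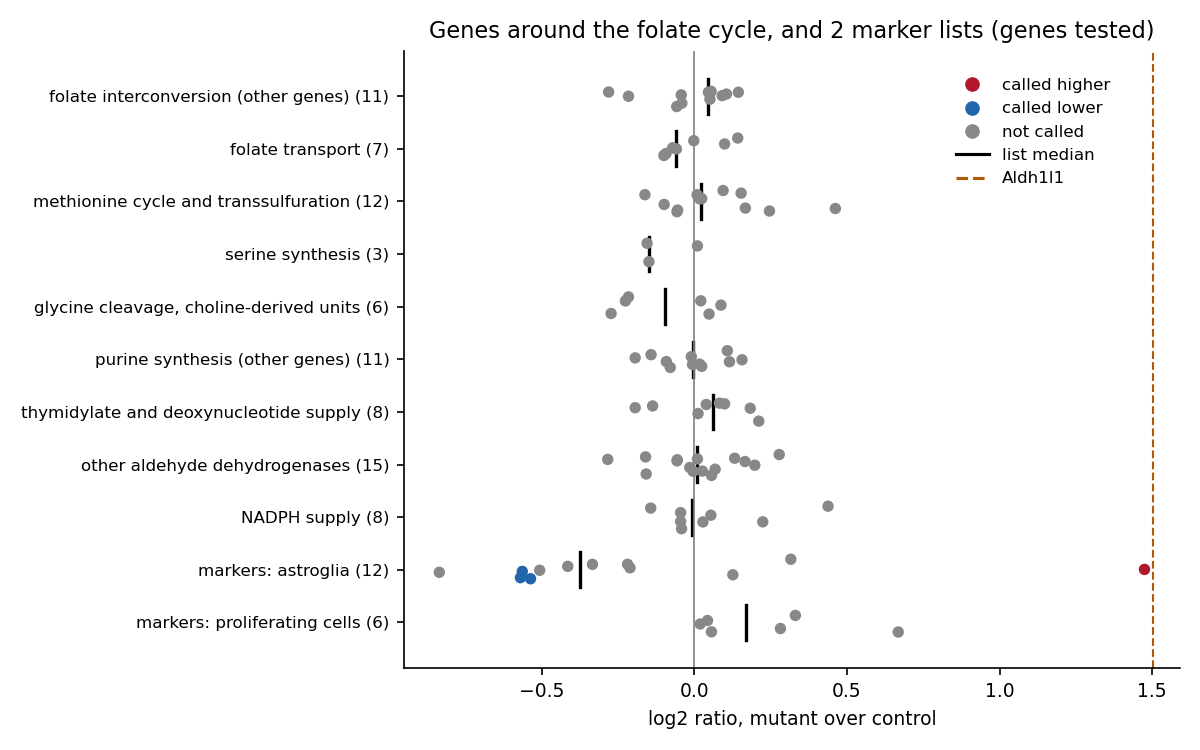
Log2 ratio of mutant over control (horizontal axis) of every tested gene in the 9 pathway lists and in the astroglial and dividing-cell marker lists, with the number tested in brackets, list medians as black bars and Aldh1l1 as a dashed line. The pathway genes lie between -0.28 and 0.46 with 0 called, and in the astroglial list Gfap alone lies near Aldh1l1.

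Astroglial markers other than Aldh1l1 did not share one direction. Of 12 tested, 1 was called higher and 3 lower, against 0.588% and 0.444% of all tested genes, and the median log2 ratio was -0.37. Gfap, the intermediate filament of astrocytes, had ratios of 1.96, 1.17, 1.29 and 1.49. Slc1a2, a glutamate transporter, had ratios of -0.62, -0.61, -0.64 and -0.41, and S100b, a calcium-binding protein, of -0.54, -0.67, -0.46 and -0.59. The summed level of the list was 17.86 to 18.12 in mutants and 18.29 to 18.45 in controls. Gfap was called higher in all 16 alternatives. The lower calls were less stable. Of the 12, 0 were called lower without pair 1, without pair 3, with the scanner's processed signals or with unpaired channels. Without pair 2, with Gja1 added, or without pair 4, with Glul added, 4 were called lower. With no filter on dim probes, or with an intensity trend and robust variances, 4 were also called lower, with Gjb6 added. The log2 ratios of S100b (-0.61 to -0.54), Aqp4 (-0.56 to -0.48) and Slc1a2 (-0.62 to -0.37) stayed below 0 in all 16. The median of the list lay between -0.455 and -0.253. The part of the number of astroglial cells in the Aldh1l1 ratio was not tested.

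Markers of other cell types of the tissue gave 0 calls. The median log2 ratio was -0.25 over 6 oligodendrocyte markers, -0.008 over 6 granule neuron markers, -0.024 over 6 Purkinje neuron markers, -0.040 over 6 microglial markers and -0.079 over 5 endothelial markers. For 8 markers of choroid plexus and meninges it was 0.17, and in pair 2 the median of that list was -0.26. That list was mixed. Dcn (0.52), Lum (0.555) and Col1a1 (0.65, with 2.06 in pair 1) were above 0 in every pair. Ttr, Kl, Aqp1, Otx2 and Folr1 were below 0 in pair 2.

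The genes most like Aldh1l1 were taken as the 6 tested genes with the smallest root mean square difference of log2 ratio over the 4 pairs. They were Pamr1 (0.104), the transcript listed as TC1614082 (0.105), Rhoq (0.12), Itih3 (0.19), Lgr6 (0.19) and Pipox (0.21). Pamr1 had log2 ratios of 1.59, 1.45, 1.35 and 1.69, close to Aldh1l1 in each pair. Pipox, a peroxisomal oxidase of sarcosine and pipecolic acid, had ratios of 1.33, 1.58, 0.96 and 1.52, and like Aldh1l1 was lowest in pair 3. It was not on the pathway lists, although Sardh, which also oxidises sarcosine, was. Since these genes were picked for their likeness, their ratios carry no test here.

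The nearest gene to each of the other members by the same measure was Med8 for Aldh1l2 (0.019), Nop9 for Mthfd1 (0.021), A930018M24Rik for Mthfd2 (0.014), Ackr1 for Shmt1 (0.022), Ubqln4 for Shmt2 (0.024), Kazald1 for Tyms (0.041) and Rpp38 for Mtr (0.019). These differences are smaller than those of the genes nearest to Aldh1l1. Far more tested genes have ratios like those of these members than like that of Aldh1l1, so closer matches are available there. In each case the nearest gene had a mean log2 ratio between -0.10 and 0.28, which follows from picking it for likeness.

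Over 16 alternatives, which changed the background correction, the normalisation, the filter, the model or the pairs used, Aldh1l1 kept a log2 ratio between 1.43 and 1.58. Of the other 7 genes 0 were called in any of them, and their lowest limma adjusted p was the 0.0684 of Tyms without pair 4. The ranges were 0.053 to 0.12 for Aldh1l2, 0.008 to 0.10 for Mthfd1, -0.14 to -0.050 for Mthfd2, -0.10 to 0.053 for Shmt1, -0.16 to -0.037 for Shmt2, 0.097 to 0.44 for Tyms and 0.086 to 0.22 for Mtr. The filter settings, the mean over probes, the dye term, the variance model and the unpaired fit could not move the Aldh1l1 ratio. Aldh1l1 has 1 probe, and the dyes were balanced over the pairs. The scanner's processed signals and the authors' table of log ratios hold the same values, and both gave 1.515 for Aldh1l1.

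**Figure D5:**
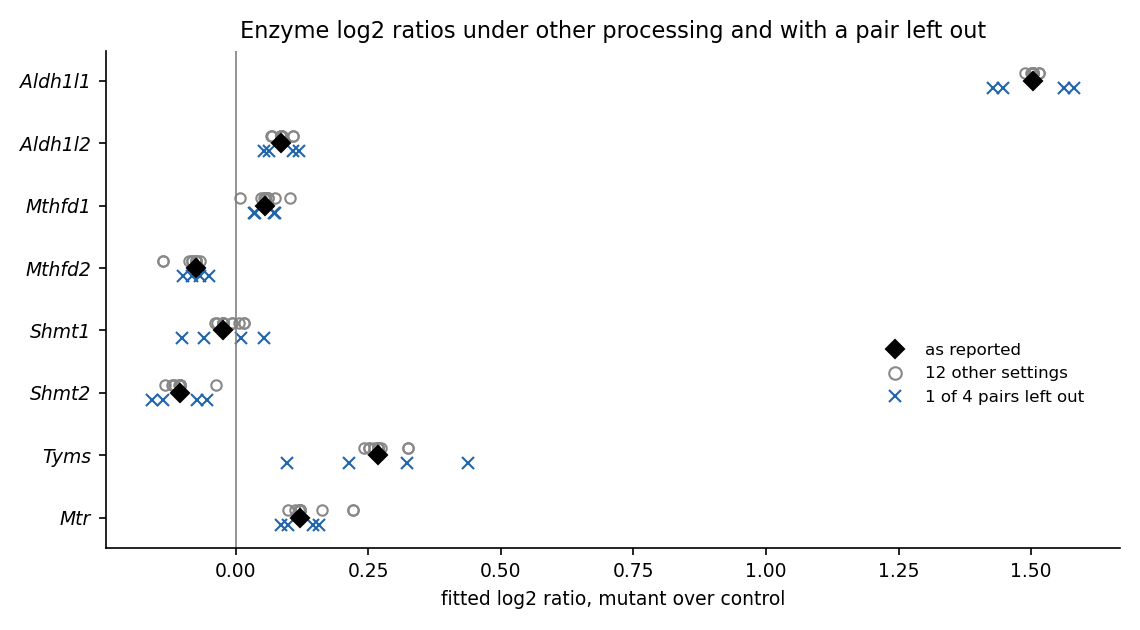
Fitted log2 ratio (horizontal axis) of each gene as reported (diamonds), under 12 other processing settings (open circles) and with 1 of the 4 pairs left out (crosses). Aldh1l1 stays between 1.43 and 1.58, Tyms moves most, from 0.097 to 0.44, and Shmt1 falls on both sides of 0.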

How the data were processed

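Gene expression was measured in 8 cerebella on 4 two-colour Agilent arrays. The authors deposited scanner output of Agilent Feature Extraction 10.5.1.1, per the file headers, as intensity per spot and channel, and a value table of log10 ratios. That table equals the scanner's log ratio with its sign turned for pairs 2 and 4 (largest difference 4.84e-06) and served as an alternative. Here intensities were corrected with normexp (offset 50) and loess in limma 3.58.1 (R 4.3.3), with control and flagged spots left out of the loess fit. Probes were kept if well above background in all 4 arrays of either group, and the brightest probe stood for a gene. Ratios were fitted with genotype and dye terms (2 residual degrees of freedom, 3.37 prior) and adjusted by Benjamini-Hochberg over 18025 genes. Replicates are littermate pairs. Symbols came through accessions for 24844 of 41174 probes, otherwise from the files. Named genes were all members, the 2 pathway genes of smallest p per list, called genes and the nearest genes by pair ratios. Phgdh and the glial and cell cycle markers were picked for mention with their values in view. The members and lists were chosen with earlier results of these data known. Scripts were tested on simulated data.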

Additional observations from a re-analysis of the deposited data

Results flagged for a closer look

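Among 30 series of 4 values (ratios and channel levels of the members) tested for a lone outlying animal or pair, 1 stood apart by Dixon's test: the level of Aldh1l2 at probe A_52_P498193 in the mutant of pair 4, 8.451, where the other mutants read 8.22 to 8.24. Chance marks about 1 in 20 such series. The control littermate read 8.28, and the log2 ratio of that pair was 0.17.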

How the results depend on the processing

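Over 16 alternatives Aldh1l1 and the other members except Shmt1 kept their direction, though several of these could not move the Aldh1l1 ratio. Of the 7 tested members 0 was called in any alternative. Shmt1 turned from -0.024 to 0.015 with median spot signals, 0.006 without background subtraction, 0.016 as the mean over probes, and in runs without 1 pair it ranged from -0.10 (without pair 1) to 0.053 (without pair 3), with 0.011 without pair 2, against an SD of 0.16. Over all genes, calls depended on the arrays and flags used. Against 106 higher and 80 lower, setting outlier flags after normexp gave 50 higher and 32 lower, and processed signals and the value table each gave 53 lower. Leaving out 1 pair gave 44 (without pair 1) to 215 (without pair 4) higher and 12 (without pair 1) to 127 (without pair 2) lower; without pair 3 they were 60 and 31. The cause was not tested. In every run without a pair, the kept pair with the dye of the omitted pair counts more than the others. Ratios from those runs are therefore not plain means of the pairs kept. With 4 pairs and 2 residual degrees of freedom, the called log2 ratios nearest to 0 were -0.437 and 0.468. Aldh1l1, Mthfd2 and Shmt2 rest on 1 probe each. Each array holds 1 littermate pair, so the reported ratio is paired. Without that pairing (no replicate block) 97 genes were higher and 66 lower. With the dyes balanced, that setting cannot change the members' ratios. The settings for pathway and marker lists were added after seeing the data.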
